A study of Mus musculus with 4 samples.

Results

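The receptors for serotonin, dopamine, noradrenaline and adrenaline, acetylcholine and histamine were measured in cortex from male mice of the SAMP8 line, a senescence-accelerated strain with early learning and memory deficits. The rule took every probe set whose platform symbol begins with Htr, Drd, Chrm or Hrh and a digit, with Adra or Adrb and a digit, or with Chrn and a subunit letter, and left out Drd1 and Drd2. It found 44 of 19505 named genes, each with 1 probe set, on an array of 22206 gene probe sets. They were 14 serotonin, 3 dopamine, 2 adrenergic, 5 muscarinic, 16 nicotinic and 4 histamine receptor genes. The treated mice were given TCQA, a compound named in the labels by this abbreviation, orally and daily at 5 mg/kg, starting at 11 months of age and lasting 1 month. The control mice were given MilliQ water instead. Mice of both groups had been caged singly for 4 months from the age of 7 months, and all belonged to the same SAMP8 strain, with no normally ageing strain used here. Each group had 2 arrays, and the labels do not say whether these were separate mice, so every p-value measures only how these samples spread, and that spread may be technical.

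These receptors carry the signals of the ascending modulatory systems, whose axons reach the cortex from small groups of cells in the brainstem, hypothalamus and basal forebrain. Most are G protein-coupled. Those coupled to Gi/o lower cyclic AMP and open potassium channels, those coupled to Gq/11 activate phospholipase C, and those coupled to Gs raise cyclic AMP. The nicotinic receptors and the serotonin 5-HT3 receptor are instead ion channels built of several subunits around a pore. Together they set arousal, attention and memory, and cholinergic signalling in particular is known to decline in aged brain.

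The values are log2 signals per probe set, which can be compared between arrays but not between probe sets, so no receptor is called more abundant than another. The signal of a gene was set instead against the median of 5222 negative control probe sets on the same array, which was 7.21 and 7.23 on the TCQA arrays and 7.32 and 7.17 on the control arrays. The arrays carried cortical markers: 11 of the 12 measured markers of cortical excitatory neurons lay above that median on all 4 arrays, the exception being Emx1. Of the 11 striatal markers measured, 9 also did. Over all gene probe sets, 51.1% had a higher mean with TCQA. Some marker lists differed between the groups. Meningeal fibroblast markers had a higher mean with TCQA in 14 of 14, thalamic markers in 10 of 13, and immediate early genes a lower mean in 11 of 11, with control replicate 1 the highest array for all 11. The part of these markers in the receptor values was not tested. In tissue RNA, fewer cells of a type and less RNA per cell cannot be told apart.

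Of the 44 receptor genes, 16 lay above the negative control median on all 4 arrays, 36.4% against 46.6% of all gene probe sets, and 26 lay below it on all 4, 59.1% against 47.9%. The 16 were Htr1a, Htr1b, Htr1f, Htr2a, Htr2c, Htr4, Htr5a, Adra1b, Chrm1, Chrm3, Chrm4, Chrna4, Chrna7, Chrnb2, Hrh2 and Hrh3. Chrm2 and Drd3 crossed it, each with 2 arrays above. None of the 5 muscle-type nicotinic subunits was above it on any array. The size of a difference is less certain for the dim genes.

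**Figure D1:**
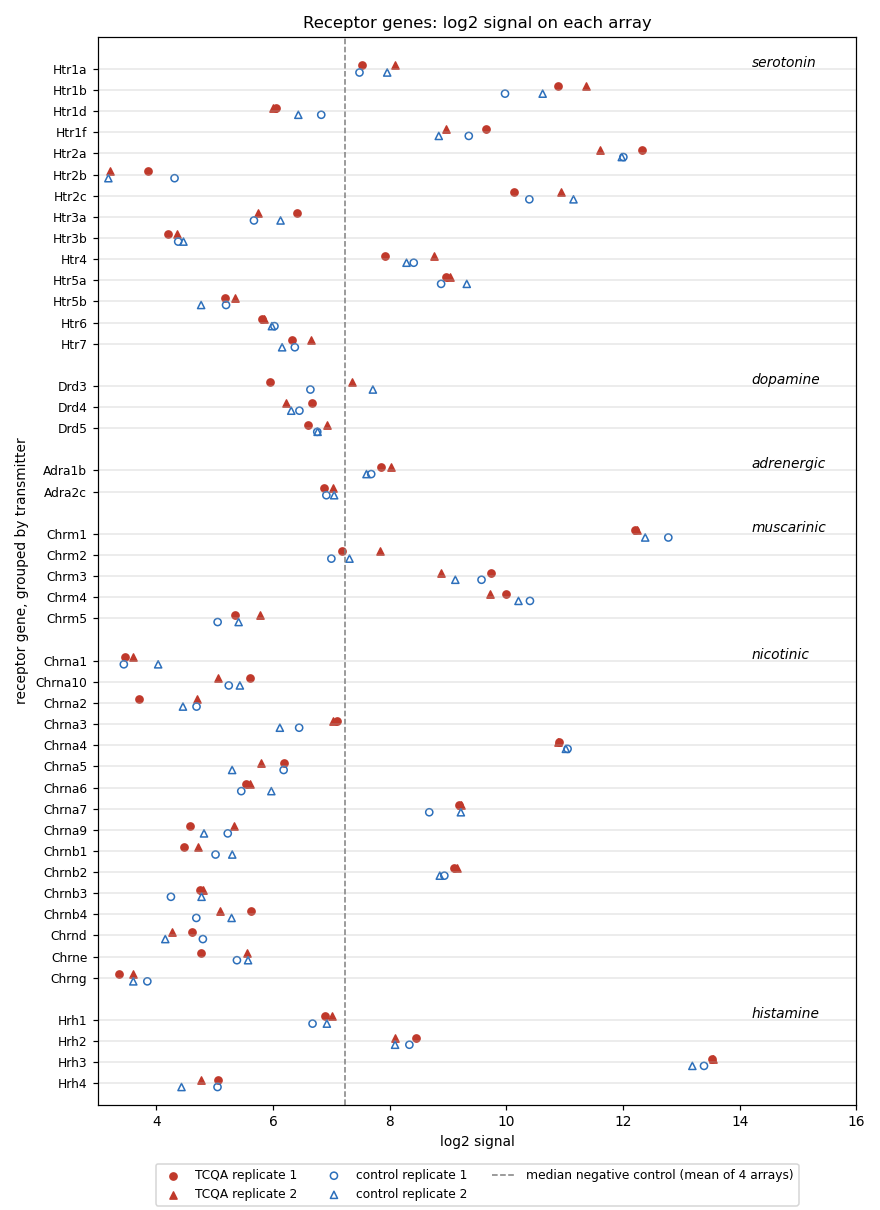
Log2 signal of the 44 receptor genes on each array, with TCQA arrays as filled red symbols above the open blue symbols of the control arrays, and the dashed line at the median negative control (7.23, mean of 4 arrays). The 16 genes named in the text lie right of the line on all 4 arrays, and in most rows the red and blue symbols overlap.

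The comparison of TCQA with water asked whether 1 month of treatment altered the cortical level of these receptors. After adjustment over all genes no receptor passed (0 of 44 by limma with Benjamini-Hochberg adjustment, 0% of all gene probe sets). At an unadjusted p under 0.05 there were 4 of 44, 9.09% against 6.24% of all gene probe sets, a share near the background. Of these, 2 were higher with TCQA (background 3.38%), the serotonin receptor gene Htr1b and the nicotinic subunit gene Chrna3, and 2 were lower (background 2.86%), the serotonin receptor gene Htr1d and the nicotinic subunit gene Chrnb1. No receptor met the criterion of the depositors, which joins an unadjusted p under 0.05 to more than a 2-fold change (0 of 44, background 0.374%). A fold over 2 alone was reached by 0 of 44 (background 0.486%), and a fold over 1.5 by 3 of 44, 6.82% against 4.67%, namely Htr1b, Chrna3 and Htr1d. In 12 of the 44 the arrays of the groups did not overlap, 27.3% against 36.6% of all gene probe sets. Of these, 5 were higher with TCQA (11.4%, background 18.9%) and 7 lower (15.9%, background 17.8%). The median log2 difference was -0.01 over the receptors and 0.01 over all gene probe sets, and 21 receptors had a higher mean with TCQA, 47.7% against 51.1% of all gene probe sets. Receptors varied more between arrays of a group than most genes did, with a median within-group SD of 0.27 on the log2 scale against 0.19 over all gene probe sets.

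**Figure D2:**
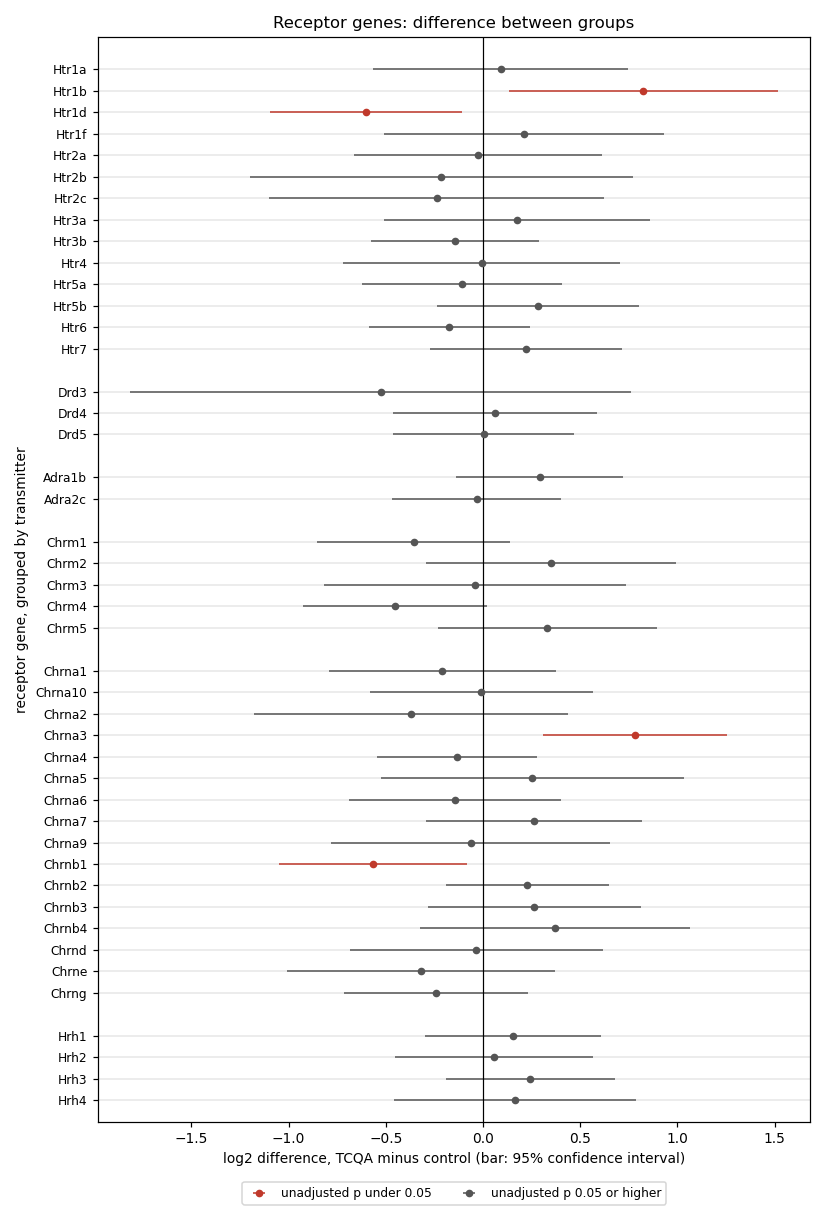
Log2 difference, TCQA minus control, for each receptor gene with its 95% confidence interval from limma, grouped by transmitter. The intervals of Htr1b and Chrna3 lie above 0 and those of Htr1d and Chrnb1 below it, while the other 40 span 0.

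Among the Gi/o-coupled serotonin receptors, the closely related Htr1b and Htr1d had means that lay in opposite directions, though neither passed adjustment. Htr1b encodes the 5-HT1B receptor, which sits on axon terminals and reduces the release of serotonin and of other transmitters. Its log2 signals were 10.88 and 11.37 with TCQA, against 9.98 and 10.62 in control. Both TCQA arrays were above both control arrays, although TCQA replicate 1 exceeded control replicate 2 only narrowly. The mean was 11.12 ± 0.34 with TCQA, against 10.30 ± 0.46 in control (SD, n = 2 each), or 1.77-fold higher. TCQA minus control gave a log2 difference of 0.82 (95% confidence interval 0.13 to 1.52, unadjusted p = 0.0265 and adjusted p = 0.787 by limma). It was 0.50 without control replicate 1 (unadjusted p = 0.139 by limma) and 0.58 without TCQA replicate 2 (unadjusted p = 0.1 by limma), and 1.15 without control replicate 2 (unadjusted p = 0.00779 by limma). Without empirical Bayes moderation, which draws each gene's spread toward a value shared by all genes, the unadjusted p of limma's fit was 0.178. Of the 10 alternatives, 7 kept the p of Htr1b under 0.05. In each group Htr1b was higher on the array numbered 2, as were 11 of the 11 striatal markers with TCQA and 8 of the 11 in control, and the part of striatal tissue in its values was not tested.

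Htr1d encodes the 5-HT1D receptor, another presynaptic autoreceptor. The 4 arrays gave log2 signals of 6.06 and 6.001 with TCQA, against 6.83 and 6.43 in control. The TCQA arrays were both lower, and all 4 arrays lay below the negative control median. The mean was 6.03 ± 0.04 with TCQA, against 6.63 ± 0.28 in control (SD, n = 2 each), or 1.52-fold lower. The log2 difference was -0.60 (95% confidence interval -1.09 to -0.11, unadjusted p = 0.0245 and adjusted p = 0.787 by limma). It was -0.40 without control replicate 1 (unadjusted p = 0.145 by limma) and -0.57 without TCQA replicate 2 (unadjusted p = 0.0683 by limma). Without moderation the unadjusted p of limma's fit was 0.0938, and 6 of the 9 alternatives that tested Htr1d kept it under 0.05.

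The promoters of this pair are printed because their means lay in opposite directions. They are from RefSeq on GRCm38.p6 and run from 250 bases before to 50 bases after an annotated start; 35 of the 44 receptor genes had at least 1, with 43 in all. Capitals mark GC boxes (GGGCGG), the short core of the cyclic AMP response element (TGACG), the AP-1 site (TGANTCA) and the TATA box (TATAAA), searched on both strands.
Htr1b promoter, chr9:81633783-81634082, - strand: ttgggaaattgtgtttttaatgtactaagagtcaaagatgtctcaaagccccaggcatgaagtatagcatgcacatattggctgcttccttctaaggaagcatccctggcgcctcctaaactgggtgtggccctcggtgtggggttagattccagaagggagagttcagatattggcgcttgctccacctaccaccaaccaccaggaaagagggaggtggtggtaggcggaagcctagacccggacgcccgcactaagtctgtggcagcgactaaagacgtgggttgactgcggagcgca
Htr1d promoter, upstream start, chr4:136423274-136423573, + strand: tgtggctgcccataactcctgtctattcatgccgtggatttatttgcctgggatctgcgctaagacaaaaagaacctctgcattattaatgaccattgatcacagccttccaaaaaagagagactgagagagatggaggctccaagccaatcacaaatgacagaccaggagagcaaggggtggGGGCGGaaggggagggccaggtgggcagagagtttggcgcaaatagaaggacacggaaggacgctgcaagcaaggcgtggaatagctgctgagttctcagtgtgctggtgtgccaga
Htr1d promoter, downstream start, chr4:136424362-136424661, + strand: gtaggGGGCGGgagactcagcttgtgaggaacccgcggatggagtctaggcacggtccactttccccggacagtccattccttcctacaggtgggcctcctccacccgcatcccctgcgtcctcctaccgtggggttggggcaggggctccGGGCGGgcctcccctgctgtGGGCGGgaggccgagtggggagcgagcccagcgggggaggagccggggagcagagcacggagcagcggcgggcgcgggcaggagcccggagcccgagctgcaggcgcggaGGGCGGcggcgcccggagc
The Htr1b window held none of these motifs. The upstream Htr1d window held 1 GC box and the downstream one 4, and neither held another motif searched. Of all 32851 promoters in the table, 35.7% held a GC box, 20.8% the short core, 7.81% an AP-1 site and 13.6% a TATA box. The GC content was 53.3% for Htr1b, and for Htr1d 52.0% upstream and 74.3% downstream.

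The other Gi/o-coupled serotonin receptors overlapped between the groups. Htr1a, the 5-HT1A receptor that acts as the autoreceptor of serotonin neurons and lies on cortical pyramidal cells, had log2 signals of 7.52 and 8.10 with TCQA, against 7.48 and 7.96 in control. The gap between arrays of a group was wider than the difference of 0.09 (SE 0.27). Htr1f was at 9.65 and 8.96 with TCQA, against 9.36 and 8.84 in control. Htr5a, the 5-HT5A receptor, was at 8.96 and 9.03 with TCQA, against 8.88 and 9.32 in control. These pairs of ranges overlapped too. Htr5b was dim at 5.18 and 5.35 with TCQA, against 5.19 and 4.77 in control, a log2 difference of 0.28 (SE 0.21).

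Of the Gq/11-coupled serotonin receptors, Htr2a encodes the 5-HT2A receptor of cortical pyramidal cells, the main target of classical hallucinogens. It had log2 signals of 12.32 and 11.61 with TCQA, against 12.01 and 11.98 in control. The TCQA arrays lay on either side of the control arrays, and the log2 difference was -0.02 (SE 0.26, 95% confidence interval -0.66 to 0.61). Htr2c encodes the 5-HT2C receptor, which is made by neurons and at a high level by the choroid plexus. Its log2 signals were 10.13 and 10.93 with TCQA, against 10.39 and 11.15 in control. In both groups the array numbered 2 was the higher, and the log2 difference was -0.24 (SE 0.36, 95% confidence interval -1.10 to 0.62). The choroid plexus markers, summed as linear signals over 13 genes, had levels of 5899 and 33970 with TCQA, against 1073 and 89800 in control. Of the 13, 9 were highest on control replicate 2 and 9 lowest on control replicate 1, and 2 lay above the negative control median on all 4 arrays. Ttr, the choroid plexus transcript for transthyretin, made up 81.3% and 94.7% of that sum with TCQA, against 16.8% and 97.6% in control. Its log2 signals were 12.23 and 14.97 with TCQA, against 7.49 and 16.42 in control. Htr2c was likewise highest on control replicate 2, but lowest on TCQA replicate 1; the part of the choroid plexus in its values was not tested. Htr2b was dim and spread widely, at 3.85 and 3.21 with TCQA, against 4.31 and 3.18 in control.

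**Figure D3:**
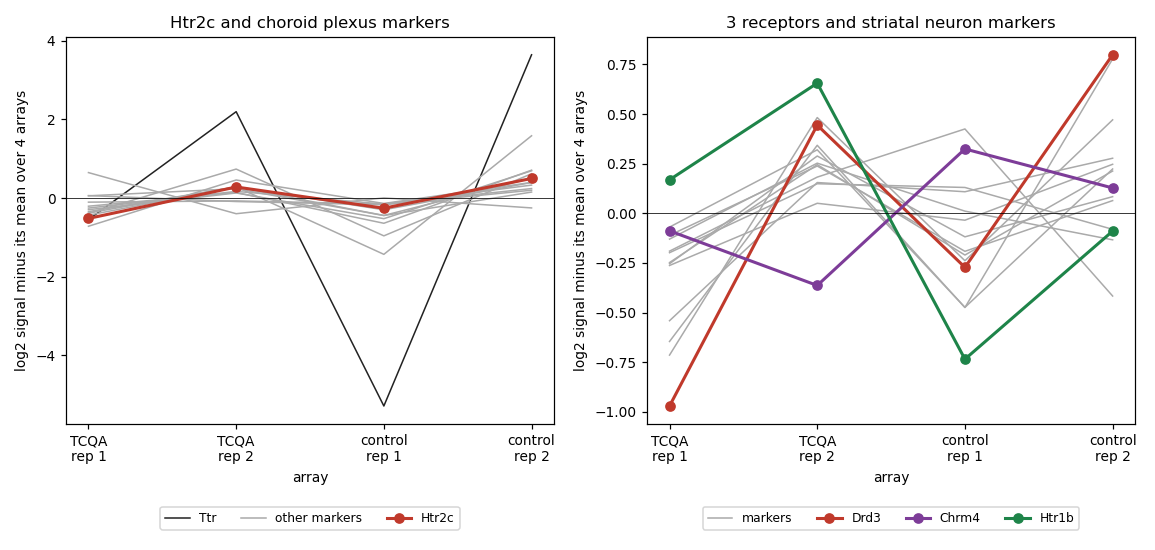
Log2 signal of each gene minus its own mean over the 4 arrays, with lines joining the arrays of a gene: on the left Htr2c (red) with 13 choroid plexus markers (Ttr black, others grey), on the right Drd3, Chrm4 and Htr1b with 11 striatal markers (grey). Htr2c, Drd3 and Htr1b were higher on the array numbered 2 in both groups, as were Ttr and several of the markers, whereas Chrm4 was lower there.

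In the main fit by limma, none of the Gs-coupled and ion channel serotonin receptors had an unadjusted p under 0.05. Htr4, which raises cyclic AMP, was at 7.92 and 8.76 with TCQA, against 8.41 and 8.29 in control, and the control arrays lay between the TCQA arrays. Htr6 was at 5.81 and 5.85 with TCQA, against 6.02 and 5.98 in control. The Htr6 arrays did not overlap and were lower with TCQA, but all 4 lay below the negative control median. Without moderation the unadjusted p of limma's fit was 0.0296 for Htr6. Of the 9 alternatives that tested Htr6, only that 1 gave a p under 0.05. Htr7 was at 6.32 and 6.65 with TCQA, against 6.37 and 6.16 in control. Htr3a encodes the subunit shared by all 5-HT3 channels and marks a class of cortical interneurons. The 4 arrays gave log2 signals of 6.40 and 5.75 with TCQA, against 5.67 and 6.13 in control. The groups overlapped, with a log2 difference of 0.18 (SE 0.28) from dim levels. Markers of that interneuron class had a higher mean with TCQA in 7 of 11. Of the 11, 2 were higher without overlap (Calb2 and Adarb2, background 18.9%) and 1 lower (Cnr1, background 17.8%). Their summed linear signals were 53200 and 41660 with TCQA, against 49560 and 46570 in control. Cck made up 39.9% and 36.5% of that sum with TCQA, against 48.1% and 40.2% in control. The part of these markers in the Htr3a values was not tested. Htr3b lies beside Htr3a on chromosome 9 with no protein-coding gene between them. It was at 4.20 and 4.35 with TCQA, against 4.37 and 4.46 in control.

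Among the dopamine receptors, Drd3 encodes the Gi/o-coupled D3 receptor, best known from the ventral striatum. It had log2 signals of 5.94 and 7.36 with TCQA, against 6.64 and 7.71 in control. The ranges overlapped, and the arrays of a group differed more than the groups did. TCQA minus control gave a log2 difference of -0.53 (SE 0.53, unadjusted p = 0.358 by limma), and it was -1.23 without TCQA replicate 2 (unadjusted p = 0.0153 by limma) but 0.18 without TCQA replicate 1. Its within-group SD exceeded that of 99.6% of all gene probe sets. The striatal markers had summed linear signals of 162100 and 236500 with TCQA, against 190300 and 224800 in control, about as much from Penk as from all the others, and of the 11 markers 7 were lowest on TCQA replicate 1 and 7 highest on TCQA replicate 2. Drd3 was lowest on TCQA replicate 1 as well, but highest on control replicate 2, and the part of striatal tissue in its values was not tested. Drd4, the D4 receptor of the prefrontal cortex, was at 6.67 and 6.22 with TCQA, against 6.45 and 6.31 in control (log2 difference 0.06, SE 0.22). Drd5, the Gs-coupled D5 receptor, was at 6.61 and 6.92 with TCQA, against 6.76 and 6.76 in control, a difference whose sign turned under median centring.

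Of 9 adrenergic receptor genes listed, 2 were among the named probe sets used here. Adra1b encodes the Gq/11-coupled alpha-1B receptor and had log2 signals of 7.85 and 8.01 with TCQA, against 7.68 and 7.60 in control. Both TCQA arrays were above both control arrays, and all 4 were above the negative control median. The mean was 7.93 ± 0.11 with TCQA, against 7.64 ± 0.06 in control (SD, n = 2 each). The log2 difference of 0.29 (SE 0.18, unadjusted p = 0.15 by limma) did not pass the threshold. Adra2c encodes the Gi/o-coupled alpha-2C receptor and was at 6.88 and 7.02 with TCQA, against 6.91 and 7.05 in control, with overlapping arrays and a log2 difference of -0.03 (SE 0.18).

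The muscarinic receptors, through which acetylcholine acts on cortical neurons by G proteins, were mixed. Chrm1 encodes the M1 receptor, the main muscarinic receptor of cortical and hippocampal pyramidal cells. Its log2 signals were 12.20 and 12.24 with TCQA, against 12.78 and 12.38 in control. The TCQA arrays were lower, with a mean of 12.22 ± 0.03 under TCQA, against 12.58 ± 0.28 in control (SD, n = 2 each). The log2 difference was -0.36 (SE 0.20, unadjusted p = 0.128 by limma), and -0.16 without control replicate 1. Chrm4 encodes the Gi/o-coupled M4 receptor, abundant in the striatum and present in cortex. The 4 arrays gave log2 signals of 9.99 and 9.72 with TCQA, against 10.40 and 10.21 in control. Each TCQA array was again lower, with a mean of 9.85 ± 0.19 under TCQA, against 10.31 ± 0.14 in control (SD, n = 2 each). TCQA minus control gave a log2 difference of -0.45 (95% confidence interval -0.92 to 0.02, unadjusted p = 0.0581 by limma). With a mean-variance trend in the fit the unadjusted p was 0.0335 by limma, but without moderation it was 0.116. Of the 10 alternatives, 3 brought the p of Chrm4 under 0.05 and 7 did not.

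Beside the lower means of Chrm1 and Chrm4, 8 of the 12 cortical excitatory neuron markers had a lower mean with TCQA. Over all gene probe sets, 10857 of 22206 did. Of the 12 markers, 4 were lower without overlap, against 17.8% of all gene probe sets. Of 9 deep cortical layer markers, however, 7 had a higher (background 51.1%) and 2 a lower mean with TCQA. Their median log2 difference was 0.13. The 12 markers had summed linear signals of 432600 and 406500 with TCQA, against 551000 and 491400 in control. Camk2a made up 63.0% and 70.6% of that sum with TCQA, against 63.9% and 66.7% in control. The part of either marker list in the muscarinic values was not tested. Chrm2, the M2 autoreceptor of cholinergic terminals, was at 7.18 and 7.83 with TCQA, against 7.00 and 7.31 in control. Its ranges overlapped, and the log2 difference of 0.35 (SE 0.26) was 0.67 without TCQA replicate 1 (unadjusted p = 0.0336 by limma) and 0.03 without TCQA replicate 2. Chrm3, the Gq/11-coupled M3 receptor, was at 9.73 and 8.89 with TCQA, against 9.57 and 9.12 in control, so that the control arrays lay between the TCQA arrays. Chrm5, the M5 receptor of dopamine neurons, was dim at 5.35 and 5.77 with TCQA, against 5.05 and 5.41 in control (log2 difference 0.33, SE 0.23).

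The nicotinic subunits common in cortex differed by small amounts. Chrna4 and Chrnb2 encode the subunits of the high-affinity alpha-4 beta-2 receptor, the most widespread nicotinic receptor of the brain. Chrna4 had log2 signals of 10.91 and 10.89 with TCQA, against 11.05 and 11.02 in control. Chrnb2 had log2 signals of 9.10 and 9.15 with TCQA, against 8.94 and 8.86 in control. Neither gene overlapped between the groups, Chrna4 being lower and Chrnb2 higher with TCQA, and their replicates were among the closest of all receptors. The Chrna4 difference was -0.13 (95% confidence interval -0.55 to 0.28) and the Chrnb2 difference 0.23 (95% confidence interval -0.19 to 0.65) on the log2 scale. The unadjusted p by limma was 0.461 for Chrna4 and 0.231 for Chrnb2. Without moderation the unadjusted p of limma's fit was 0.0166 for Chrna4 and 0.0419 for Chrnb2, in the fit that lost Htr1b, Htr1d and Chrnb1. For each of these 2 subunits, the other 9 of 10 alternatives gave no p under 0.05. Chrna7, which forms a calcium-permeable channel of 1 subunit type, was at 9.19 and 9.23 with TCQA, against 8.68 and 9.22 in control. Control replicate 1 stood apart as the low array, and the difference of 0.26 (SE 0.23) was -0.01 without it.

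Chrna3, whose subunit pairs mainly with the beta-4 subunit in autonomic ganglia and the medial habenula, had the smallest p of the receptors. It had log2 signals of 7.10 and 7.02 with TCQA, against 6.45 and 6.12 in control. Both TCQA arrays were higher, and all 4 arrays lay below the negative control median. The mean was 7.06 ± 0.06 with TCQA, against 6.28 ± 0.23 in control (SD, n = 2 each), or 1.72-fold higher. The log2 difference was 0.78 (95% confidence interval 0.31 to 1.25, unadjusted p = 0.00659 and adjusted p = 0.787 by limma). It ranged from 0.62 to 0.95 when each array was left out, and its unadjusted p was under the threshold in all 9 alternatives that tested it. Its neighbours on chromosome 9, Chrna5 and Chrnb4, have no protein-coding gene between them and Chrna3. Chrna5 was at 6.19 and 5.80 with TCQA, against 6.18 and 5.30 in control. Chrnb4 was at 5.63 and 5.08 with TCQA, against 4.68 and 5.29 in control. Both overlapped between the groups, though their means were higher with TCQA as well. Medial habenula markers had a higher mean with TCQA in 4 of 7, and 2 of the 7, Tac2 and Nwd2, lay above the negative control median on all 4 arrays. Their summed linear signals were 2369 and 2221 with TCQA, against 2258 and 2651 in control. Nwd2 alone made up 83.8% and 81.8% of that sum with TCQA, against 82.7% and 85.5% in control, so the sum does not stand for the list. Thalamic markers had summed linear signals of 14040 and 17690 with TCQA, against 8307 and 12170 in control, and their part in the Chrna3 values was not tested.

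The subunits of the nicotinic receptor of skeletal muscle all had a lower mean with TCQA, from dim levels. The 5 genes had a median log2 difference of -0.24, with a range of -0.57 to -0.03. Chrnb1, the muscle beta subunit, had log2 signals of 4.47 and 4.71 with TCQA, against 5.01 and 5.30 in control. Neither TCQA array reached a control array, with a mean of 4.59 ± 0.17 under TCQA, against 5.16 ± 0.20 in control (SD, n = 2 each), or 1.48-fold lower. TCQA minus control gave a log2 difference of -0.57 (95% confidence interval -1.05 to -0.08, unadjusted p = 0.0283 and adjusted p = 0.787 by limma). It was -0.45 without TCQA replicate 1 (unadjusted p = 0.122 by limma) and -0.42 without control replicate 2 (unadjusted p = 0.147 by limma). The unadjusted p of limma's fit was 0.0918 without moderation and 0.051 with a mean-variance trend, so that 5 of the 9 alternatives kept it under 0.05. The other 4 overlapped. Chrna1 was at 3.46 and 3.60 with TCQA, against 3.44 and 4.03 in control. Chrnd was at 4.61 and 4.27 with TCQA, against 4.80 and 4.15 in control. Chrne was at 4.77 and 5.55 with TCQA, against 5.38 and 5.57 in control, and Chrng at 3.36 and 3.60 with TCQA, against 3.84 and 3.60 in control. All these levels lay far under the negative control median, where a signal need not come from the named gene. Of 8 skeletal muscle markers 4 had a higher and 4 a lower mean with TCQA, and 1 lay above the negative control median on all 4 arrays.

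The promoters of the nicotinic genes with the smallest p are shown in the same form, because Chrna3 was higher and Chrnb1 lower.
Chrna3 promoter, chr9:55026513-55026812, - strand: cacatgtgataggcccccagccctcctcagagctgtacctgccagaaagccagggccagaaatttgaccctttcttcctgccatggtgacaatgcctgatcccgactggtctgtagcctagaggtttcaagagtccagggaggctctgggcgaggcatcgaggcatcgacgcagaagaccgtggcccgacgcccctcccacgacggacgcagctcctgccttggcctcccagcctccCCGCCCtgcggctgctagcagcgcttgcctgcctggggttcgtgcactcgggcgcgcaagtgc
Chrnb1 promoter, chr11:69795888-69796187, - strand: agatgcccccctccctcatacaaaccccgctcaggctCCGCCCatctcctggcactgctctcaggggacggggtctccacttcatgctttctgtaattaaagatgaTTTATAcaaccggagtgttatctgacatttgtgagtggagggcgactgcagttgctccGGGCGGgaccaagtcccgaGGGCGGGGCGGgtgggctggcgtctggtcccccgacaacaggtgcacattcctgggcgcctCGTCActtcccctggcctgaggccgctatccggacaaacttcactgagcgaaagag
The Chrna3 window held 1 GC box and no other motif searched. The Chrnb1 window held 4 GC boxes, of which a pair overlap, with 1 short core and 1 TATA box, both read on the opposite strand. A match is a description of the letters and does not show that a factor binds there. Of the 43 receptor promoters 22 held a GC box, 4 the short core, 5 an AP-1 site and 1, that of Chrnb1, a TATA box.

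The remaining nicotinic subunits were dim on all 4 arrays and overlapped between the groups. Chrna2, a subunit of some deep-layer interneurons, was at 3.71 and 4.69 with TCQA, against 4.69 and 4.46 in control. TCQA replicate 1 stood apart as the low array. Chrna6, a subunit of dopamine neurons, was at 5.53 and 5.61 with TCQA, against 5.46 and 5.97 in control, and its neighbour Chrnb3 at 4.75 and 4.80 with TCQA, against 4.25 and 4.77 in control. Chrna9, which with Chrna10 forms the receptor of cochlear hair cells, was at 4.58 and 5.33 with TCQA, against 5.22 and 4.82 in control. Chrna10 was at 5.60 and 5.05 with TCQA, against 5.24 and 5.43 in control. No array stood apart in the same way for both. Over the 16 nicotinic genes 6 means were higher and 10 lower with TCQA, with a median log2 difference of -0.05.

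The histamine receptors all had a higher mean with TCQA, by small amounts. Hrh3 encodes the Gi/o-coupled H3 receptor, the presynaptic autoreceptor of histamine neurons that also limits the release of other transmitters. Its log2 signals were 13.53 and 13.53 with TCQA, against 13.39 and 13.19 in control. The TCQA arrays were nearly equal and both above the control arrays. The log2 difference was 0.24 (95% confidence interval -0.19 to 0.68, unadjusted p = 0.223 by limma). Hrh1, the Gq/11-coupled H1 receptor through which sedating antihistamines act, was at 6.89 and 7.02 with TCQA, against 6.68 and 6.92 in control (log2 difference 0.16, SE 0.19). Hrh2, the Gs-coupled H2 receptor, was at 8.45 and 8.09 with TCQA, against 8.34 and 8.09 in control. Hrh4, the H4 receptor of immune cells, was at 5.05 and 4.76 with TCQA, against 5.05 and 4.43 in control (log2 difference 0.16, SE 0.26). Other than Hrh3, these overlapped between the groups.

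**Figure D4:**
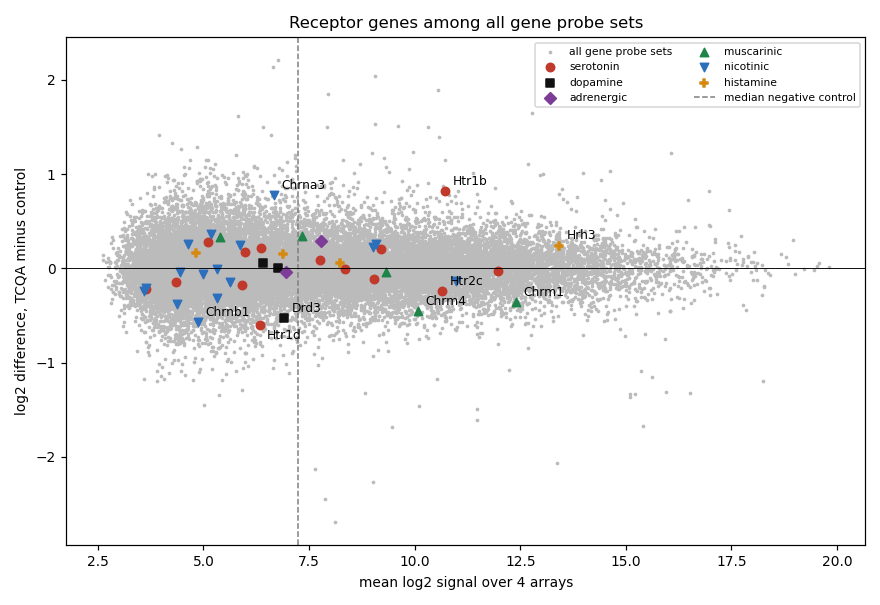
Log2 difference, TCQA minus control, against the mean log2 signal over 4 arrays for all 22206 gene probe sets (grey) and the 44 receptors by transmitter, with the median negative control dashed. The receptors lie within the grey cloud, with Htr1b the highest at 0.82 and Htr1d the lowest at -0.60.

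Grouped by signalling, the 13 Gi/o-coupled receptors had a median log2 difference of 0.09, with 8 higher means, and the 8 Gq/11-coupled ones a median of -0.03, with 3 higher means. The 5 Gs-coupled receptors had a median of 0.00 and a range of -0.17 to 0.22. The 13 neuronal channel subunits had a median of 0.18, with 7 higher means. By transmitter, the medians were -0.02 for serotonin, -0.04 for muscarinic and 0.16 for histamine receptors. These medians are descriptions beside the 0.01 of all gene probe sets.

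Other genes of these pathways were read from lists of their roles. Of 25 measured G protein subunit genes, 1 was higher (background 3.38%) and 1 lower (background 2.86%) with TCQA at an unadjusted p under 0.05, about the background. Gnb3, a beta subunit, was at 7.17 and 7.07 with TCQA, against 6.56 and 6.46 in control, a log2 difference of 0.61 (SE 0.17). Gng3, a neuronal gamma subunit, was at 15.50 and 15.54 with TCQA, against 16.16 and 15.83 in control. Neither overlapped between the groups, and Gnb3 was below the negative control median on all 4 arrays. The Gng3 log2 difference of -0.47 (SE 0.19) had an unadjusted p of 0.0499 by limma, which 7 of 10 alternatives moved over 0.05, among them median centring (0.0541) and quantile normalization (0.0638), and it was -0.31 without control replicate 1. Downstream, 30 adenylyl cyclase, phospholipase, kinase, phosphodiesterase, calcium release channel and potassium channel genes were measured. Of these, 0 had an unadjusted p under 0.05 by limma in either direction (background 6.24%). Of 19 receptor kinase, arrestin and RGS genes, 1 was lower (background 2.86%) and 0 higher (background 3.38%) at such a p by limma. The lower gene was Rgs7, which speeds the shut-off of Gi/o signals. Rgs7 was at 11.86 and 11.72 with TCQA, against 12.13 and 12.46 in control. Its log2 difference was -0.50 (SE 0.20), and its unadjusted p of 0.043 by limma exceeded 0.05 in 5 of 10 alternatives, among them no moderation (0.107) and the replicate block (0.0573). By limma with adjustment over all genes, 0 genes of any of these lists passed.

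Of 13 chaperones and modulators of nicotinic receptors, 1 was lower (background 2.86%) and 0 higher (background 3.38%) at an unadjusted p under 0.05 by limma. It was Lynx1, whose membrane-anchored product binds nicotinic receptors and damps their response. Lynx1 had log2 signals of 11.60 and 11.52 with TCQA, against 12.48 and 12.25 in control. Both TCQA arrays were lower and every array was above the negative control median. TCQA minus control gave a log2 difference of -0.80 (SE 0.18, unadjusted p = 0.00433 by limma), and it ranged from -0.92 to -0.69 when each array was left out. Ric3, a chaperone of nicotinic receptor assembly, was at 10.67 and 10.48 with TCQA, against 10.41 and 10.32 in control.

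Of 21 genes that make, store, take up or break down these transmitters, 17 had a higher mean with TCQA (background 51.1%). Only 5 of the 21 lay above the negative control median on all 4 arrays (background 46.6%). At an unadjusted p under 0.05 by limma, 3 of the 21 were higher (background 3.38%) and 0 lower (background 2.86%). Slc18a2, the vesicular monoamine transporter, was at 7.36 and 7.73 with TCQA, against 6.66 and 6.17 in control. Both of its control arrays lay below the negative control median, so the size of its difference is less certain. Hnmt, which inactivates histamine, was at 12.24 and 12.15 with TCQA, against 11.54 and 11.67 in control. Maob, the monoamine oxidase of astrocytes, was at 9.25 and 9.46 with TCQA, against 8.94 and 8.70 in control. In all 3 both TCQA arrays lay above both control arrays. The log2 difference was 1.13 (SE 0.24) for Slc18a2, 0.59 (SE 0.18) for Hnmt and 0.53 (SE 0.19) for Maob. Of 10 alternatives, 9 kept the unadjusted p under 0.05 for Slc18a2, 8 for Hnmt and 7 for Maob. The list had a median of 0.21, and 14 of the 21 were highest on TCQA replicate 2. Hypothalamic neuron markers had a higher mean with TCQA in 9 of 10 and were highest on that same array in 9 of 10, with summed linear signals of 547.1 and 2116 with TCQA, against 444.7 and 433.3 in control. Pmch, the transcript for melanin-concentrating hormone, was the largest part of that sum on TCQA replicate 2, at 60.5%. None of the 10 lay above the negative control median on all 4 arrays, and the part of hypothalamic tissue in the list was not tested. Astrocyte markers had a higher mean with TCQA in 8 of 10 (background 51.1%). Of the 10, 6 were higher without overlap (background 18.9%) and 1 lower without overlap (background 17.8%). The part of these astrocyte markers in the Hnmt and Maob values was not tested.

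**Figure D5:**
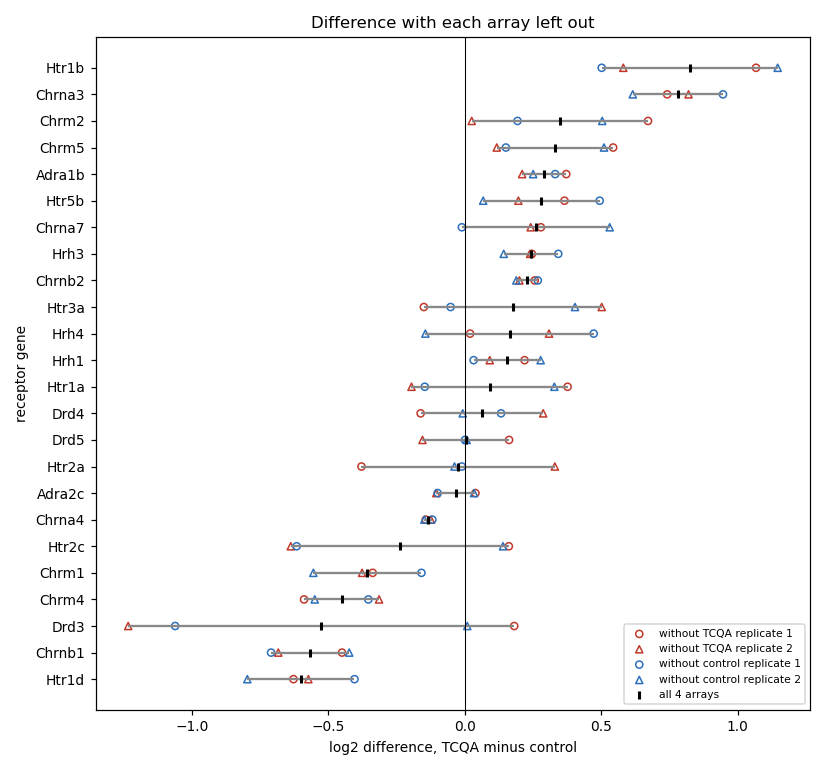
Log2 difference, TCQA minus control, of the 24 receptors described with a difference, using all 4 arrays (black tick) and leaving out each array in turn (open symbols, red for a TCQA and blue for a control array). The Htr1b and Chrna3 values stay above 0 and those of Htr1d and Chrnb1 below it, while 10 of the 24 receptors cross 0.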

How the data were processed

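The data were Clariom S mouse array values of 4 cortex samples, 2 per group, made from 100 ng of RNA each. The deposited values are log2 signals, which the authors made with SST-RMA in the Transcriptome Analysis Console (version 4.0.2), per the labels' protocols; this brings the arrays to a common distribution. The genome build of that annotation was left as not given in the sources used here. Of 28846 probe sets, 6640 controls were left out, and 22206 were tested with limma 3.58.1 in R 4.3.3 (lmFit and eBayes, two-sided, TCQA minus control, Benjamini-Hochberg over all, 2 residual and 4.23 prior degrees of freedom). Dim genes stayed in. Symbols came from the platform annotation, updated through RefSeq gene IDs; 19572 probe sets had 1 symbol, 0 had several and 2634 had none here. Precision is limited by the number of arrays (median SE 0.23 over the receptors). The script was tested on simulated data. The receptors and all lists were chosen with earlier results of these data known. Differences were given for receptors with an unadjusted p under 0.05, for the 3 with the smallest p of each transmitter and for a fixed set of well-studied receptors, and all receptors could be given by their array values. Pathway genes were those with the smallest p of their list, up to 3 each. Alternatives were no moderation, a mean-variance trend, median centring, quantile normalization, leaving out dim probe sets, a replicate block and leaving out each array. No batch is labelled.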

Additional observations from a re-analysis of the deposited data

How the results depend on the processing

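By limma, the count of receptors at an unadjusted p under 0.05 was 4 of 44 with all arrays, against 1386 of 22206 gene probe sets. A fit without 1 array assumes that the lone array of a group varies like the others. Leaving out dim probe sets left 17 receptors among 11161 probe sets. Of the 17, 2 had such a p (Chrm4 and Htr1b), against 964 of the 11161. In 7 of the 17 the groups did not overlap, and the share over the 11161 was not counted. Over all genes, 0 passed adjustment with all arrays and from 0 to 4 without 1 array. No receptor met the criterion of the depositors with all arrays, and 0 to 1 did without 1 array, which was Htr1b without TCQA replicate 1 or control replicate 2 and Drd3 without TCQA replicate 2. The count that did not overlap was 26 to 31 without 1 array, since a lone array overlaps less often by construction. The same share over all gene probe sets was not counted for these fits. The arrays share only a replicate number, with a correlation of same-numbered deviations of 0.05 over all genes and 0.44 over the 44 receptors. With a replicate block 5 receptors had an unadjusted p under 0.05 by limma, Drd3 being added, against 1425 of 22206 gene probe sets. With that block 0 passed adjustment. Of the 24 receptors given with a difference, 14 kept their sign under every alternative that tested them. Drd5 turned to -0.0033 under median centring and -0.0126 under quantile normalization. Without 1 array the log2 difference ranged from -0.10 to 0.0389 for Adra2c, -0.0108 to 0.53 for Chrna7, -1.23 to 0.18 for Drd3, -0.16 to 0.29 for Drd4, -0.16 to 0.16 for Drd5, -0.14 to 0.47 for Hrh4, -0.20 to 0.38 for Htr1a, -0.38 to 0.33 for Htr2a, -0.64 to 0.16 for Htr2c and -0.15 to 0.50 for Htr3a; the cause was not tested. The 4 receptors with an unadjusted p under 0.05 kept their direction throughout, but alternatives moved that p over 0.05 in 3 of 10 for Htr1b, 3 of 9 for Htr1d and 4 of 9 for Chrnb1, and in 0 of 9 for Chrna3. Without moderation Chrna3 was the only one of the 4 to keep it. Of the pathway genes named, the p exceeded 0.05 in 7 of 10 for Gng3, 5 of 10 for Rgs7, 3 of 10 for Maob, 2 of 10 for Hnmt, 2 of 9 for Gnb3, 1 of 10 for Slc18a2 and 0 of 10 for Lynx1. Signals near or under the negative controls, as for Chrna3, Htr1d and Chrnb1, limit what their differences show.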
